A study of Homo sapiens with 15 samples.

Results

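The genes described here are the cytosolic heat shock proteins and J proteins of SW480, an established human colorectal cancer line that the labels call intestinal epithelial. They were chosen by symbol: every entry of the deposited gene table named as an HSPA, HSPB, HSPH, DNAJA, DNAJB or DNAJC gene followed by its number, together with HSP90AA1, HSP90AB1, HSPD1 and HSPE1, and without the endoplasmic reticulum proteins HSPA5, DNAJB9, DNAJB11 and DNAJC3. The rule gave 69 genes of 57905, and no symbol was listed more than once. Of these, 54 had at least 0.5 FPKM (fragments per transcript length and library size) in at least 3 of 12 libraries and were tested with the other genes that passed, 17214 in all. The choice by symbol also takes in members that work outside the cytosol, 9 of them known from mitochondria (HSPD1, HSPE1 and HSPA9 among them) and 7 from the endoplasmic reticulum. The study measured total RNA after an inflammatory stimulus and after lentiviral delivery of a short hairpin against PINT, a long noncoding RNA. Its groups here are control (labelled with no treatment, PBS being the protocol's counterpart of the stimulus), LPS (lipopolysaccharide at 1 µg/ml for 4 h), PINT shRNA1 (the hairpin) and PINT shRNA1 with LPS (both), each with 3 libraries. No group with a non-targeting hairpin is named in the labels, so the hairpin and the lentivirus that carried it cannot be told apart. All libraries come from 1 cell line, and the labels do not say whether replicates were separate cultures, so each p-value reflects library-to-library spread alone, which may be technical.

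HSP70 proteins bind short hydrophobic stretches of unfolded proteins and release them in a cycle driven by ATP. J proteins bring clients to HSP70 and speed up its ATP hydrolysis, HSP110 proteins exchange the nucleotide, and HSP90 receives clients such as kinases and steroid receptors for their last folding steps. Small heat shock proteins hold unfolded proteins without ATP, and HSPD1 and HSPE1 form the folding chamber of mitochondria. Under heat or other protein damage the transcription factor HSF1 binds heat shock elements, alternating GAA and TTC units, and drives the inducible members, while many others are expressed at all times.

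The heat shock elements in front of these genes are shown first because HSF1 acts through such letters and several of the most abundant members carry them. Promoter windows of RefSeq on GRCh38.p14 matched 59 of the 69 members by symbol, and the 250 bases before each start were searched on both strands. A 3-unit element was written as GAA-NN-TTC-NN-GAA or TTC-NN-GAA-NN-TTC (N for any base), and a 2-unit element as GAA-NN-TTC or TTC-NN-GAA, so every 3-unit element also contains 2-unit ones. The following stretches of 30 bases, read 5′ to 3′ on the strand of the gene, hold the elements in capitals.
HSPA8, chr11:123062345-123062374: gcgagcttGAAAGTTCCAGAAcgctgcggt
HSPA8, chr11:123062170-123062199: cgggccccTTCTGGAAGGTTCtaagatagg
HSP90AA1, chr14:102087104-102087133: cTTCCGGAAGGTTCgggaggcTTCTGGAAa
HSP90AB1, chr6:44247770-44247799: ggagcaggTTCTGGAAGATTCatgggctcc
HSP90AB1, chr6:44247823-44247852: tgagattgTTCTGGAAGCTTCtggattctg
HSPD1, chr2:197500061-197500090: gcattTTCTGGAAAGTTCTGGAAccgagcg
HSPA6, chr1:161524349-161524378: ccgatctgcccGAACCTTCtcccggggtca
HSPA6, chr1:161524458-161524487: cggaaaggTTCGCGAAAGTTCgcggcggcg
DNAJB6, chr7:157336865-157336894: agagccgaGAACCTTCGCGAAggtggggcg
HSPA1A, chr6:31815426-31815455: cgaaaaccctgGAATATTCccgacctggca
HSPA1B, chr6:31827622-31827651: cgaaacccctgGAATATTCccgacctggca
HSPB1, chr7:76302480-76302509: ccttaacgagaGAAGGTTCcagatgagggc
DNAJB1, chr19:14518456-14518485: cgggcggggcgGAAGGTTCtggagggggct
DNAJB1, chr19:14518426-14518455: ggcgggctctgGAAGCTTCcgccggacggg
The genes HSPA8, HSP90AA1, HSP90AB1, HSPD1, HSPA6 and DNAJB6 were the members with a 3-unit element, while the stretches of HSPA1A, HSPA1B, HSPB1 and DNAJB1 hold 2-unit elements. A gene was counted when at least 1 of its listed starts had the element. In a list of 14 members known as heat-inducible targets of HSF1, 5 (35.7%) had a 3-unit element and 12 (85.7%) a 2-unit element. That list was chosen by the factor that binds these elements, so its shares are not independent of the choice. Over all 27305 genes of the promoter table the shares were 0.557% and 14.0%, and over the 36 tested members outside the heat-inducible list they were 2.78% and 13.9%. A match is a description of the letters and does not show that a factor binds there. The elements of HSPD1 and HSP90AA1 lie before the downstream one of the 2 listed starts of each gene. Those of HSP90AB1 lie before its most downstream listed start, and those of DNAJB1 lie downstream of its most upstream listed start. HSPD1 and HSPE1 lie head to head, with their nearest listed RefSeq starts 105 bases apart.

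In unstimulated cells the members at the top were HSP70 and HSP90 of the cytosol, followed by mitochondrial chaperones. By mean FPKM, a scale per transcript length, HSPA8, the constitutive HSP70 of the cytosol, led with 799.6 ± 29.7 (SD, n = 3), followed by the stress-inducible HSP90 isoform HSP90AA1 (717 ± 30.8) and the constitutive isoform HSP90AB1 (623 ± 4.57). Although made at all times, HSPA8 and HSP90AB1 are also on the heat-inducible list. The mitochondrial chaperonin HSPD1 stood at 547 ± 21.6, 4th in the order and apart from HSP90AB1 beyond the SD of either. Next came mitochondrial HSPA9 (153 ± 9.36) and the HSPD1 partner HSPE1 (151 ± 1.69), which did not differ beyond their spread. HSPH1 (127 ± 4.80), an HSP110 exchange factor, the class A J protein DNAJA1 (116 ± 1.03), the small heat shock protein HSPB1 (90.8 ± 2.96) and HSPA4 (87.6 ± 2.00), another HSP110 protein, completed the first 10, and the last 2 of these lay within their spread of each other.

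Of all 69 members, 8 had a control mean of 100 FPKM or more, 28 lay between 10 and 100, 16 between 1 and 10, and 17 under 1. Among J proteins the highest after DNAJA1 were DNAJB6 (71.0 ± 2.63 FPKM) and DNAJB1 (70.5 ± 6.50 FPKM), the main inducible partner of cytosolic HSP70, whose spreads overlap. The 27 class C J proteins, a mixed class that shares only the J domain, ranged widely: the 24 that were tested had control means from 1.84 to 60.1 FPKM, with DNAJC7, which also binds HSP90, at the top. The levels also show which heat-inducible genes were quiet. HSPA6, an HSP70 that most cells make only under strong stress, reached at most 0.111 FPKM in any library, and its neighbour HSPA7 at most 0.0864. The 15 members that did not pass the filter stayed at or under 0.389 FPKM. HSPB3 and DNAJB8 were listed at 0 in every library, and the other 13 were HSPA6, HSPA7, HSPA12B, HSPB2, HSPB6, HSPB7, HSPB9, DNAJB3, DNAJB7, DNAJB13, DNAJC5B, DNAJC5G and DNAJC12.

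**Figure D1:**
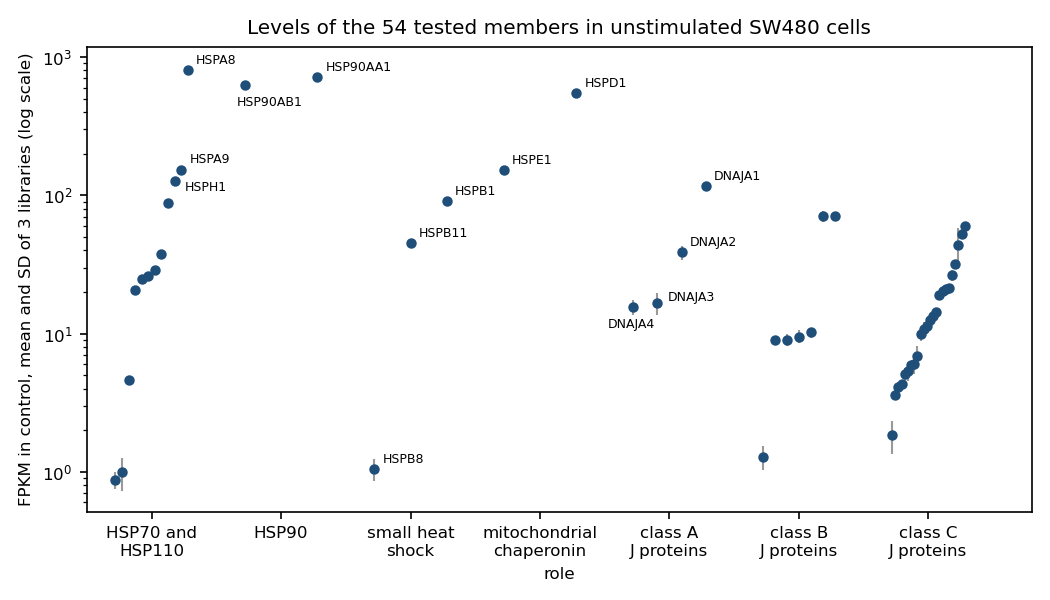
Control levels of the 54 tested members by role, in FPKM on a log scale; points are means and bars SDs of 3 libraries. HSPA8, HSP90AA1, HSP90AB1 and HSPD1 stand at the top, from 547 to 799.6 FPKM, while class C J proteins spread from 1.84 to 60.1 FPKM.

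All members together held 1.01% to 1.03% of the summed FPKM in the control libraries and 1.05% to 1.12% in the other 9 libraries. Within that sum the HSP90 pair took 31.0% to 31.7% in control and 32.4% to 33.7% in PINT shRNA1. Small heat shock proteins took 3.10% to 3.30% in control and 2.53% to 2.75% in PINT shRNA1, and class B J proteins 4.13% to 4.40% and 3.21% to 3.81%. These ranges are descriptions without a test, and the shares are not independent of each other.

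Some facts of the libraries touch every comparison. FPKM summed to 409248 to 421487 per library, absolute depth is unknown, and relative depth, read from the lowest values with the first control library at 1, ran from 0.809 to 1 in control, from 0.848 to 0.858 with LPS, from 0.914 to 1.05 with the hairpin alone, and from 1.3003 to 1.51 with both. The number of genes with a value above 0 was 27078 to 28430 without the hairpin and 30725 to 31961 with it. Libraries of a group correlated at r = 0.982 to 0.991 across genes, which are not independent replicates. The targeted gene LINC-PINT went against its label: it stood at 2.88, 2.56 and 2.51 FPKM in control, 2.40, 2.82 and 1.91 with LPS, 4.55, 5.26 and 5.34 in PINT shRNA1 and 3.54, 4.00 and 4.08 in PINT shRNA1 with LPS, which was 1.76-fold higher in the libraries labelled PINT shRNA1 than in control (log2 0.81 ± 0.118, adjusted p = 0.000592). The group names below are therefore those of the labels only. Of 6 inflammatory genes listed as a check of LPS exposure, 6 were called higher with LPS against control and 4 with LPS in the hairpin libraries. The same 6 were all lower in PINT shRNA1 with LPS than in LPS (median log2 difference -0.92), 3 were lower in PINT shRNA1 than in control, and the LPS response of 3 was called smaller with the hairpin than without it. The 6 intestinal epithelial markers listed (EPCAM, KRT8, KRT18, CDH1, VIL1 and CDX2) all passed the filter, and their summed level was 2058 to 2363 FPKM in control and 2032 to 2078 with LPS, but 1230 to 1310 with the hairpin alone and 1287 to 1353 with both. With the hairpin 4 of the 6 were called lower and 1 higher. The 6 leukocyte markers summed to 2.89 to 5.43 FPKM and 6 fibroblast and endothelial markers to 0.495 to 1.33, with PTPRC, the common leukocyte antigen, at 0 in 9 libraries and at most 0.0713 FPKM. Of the leukocyte markers 3 passed the filter. Against control, 1 of these was called lower with LPS and 1 higher in PINT shRNA1. In PINT shRNA1 with LPS against LPS, 2 were called higher. The epithelial markers and some leukocyte markers thus moved with the hairpin, and the part of either in the results below was not tested. In bulk RNA, fewer cells of a type and less RNA per cell cannot be told apart.

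With LPS alone, 0 of the 54 tested members were called, that is, reached an adjusted p under 0.05 in limma over all 17214 genes. Of all genes, 2.76% were called (1.57% higher, 1.19% lower), a share that was 0.738% with only these 6 libraries in the fit and 1.81% with a replicate block, where 0 members were called. At an unadjusted p under 0.05, 7 members were higher and 2 lower, beside 1055 and 1841 of all 17214 genes. The median log2 difference of the members was 0.014, beside -0.038 for all genes tested. No overlap between LPS and control libraries was seen for 8 members above control (7.22% of all genes) and 4 below (11.9% of all genes).

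The members with the smallest p were HSP90AB1, DNAJC2, HSPB8 and HSPA8. HSP90AB1 stood at 619, 621 and 628 FPKM in control, 656, 661 and 685 with LPS, 670.1, 680.5 and 682 in PINT shRNA1 and 689, 677 and 690.2 in PINT shRNA1 with LPS. All 3 LPS libraries lay above all 3 control libraries, and the log2 difference between these groups was 0.10 ± 0.0256 (adjusted p = 0.0710). DNAJC2, which assists HSP70 at the ribosome exit together with HSPA14, differed by 0.18 ± 0.0481 (adjusted p = 0.0739), with the values given further on. HSPB8, a small heat shock protein that works with BAG3, stood at 1.27, 0.921 and 0.950 FPKM in control, 1.41, 1.87 and 1.60 with LPS, 0.983, 1.12 and 1.31 in PINT shRNA1 and 1.37, 1.25 and 1.37 in PINT shRNA1 with LPS. HSPB8 differed by 0.46 ± 0.123 (adjusted p = 0.0824) between LPS and control. HSPA8 was measured at 767, 806 and 826 FPKM in control, 888, 1016 and 916 with LPS, 859, 839 and 983 in PINT shRNA1 and 867, 848 and 891 in PINT shRNA1 with LPS. Its LPS libraries also lay above every control library, with a difference of 0.23 ± 0.0643 (adjusted p = 0.0934). These 4 differences did not pass the threshold over all genes, and HSPB8 was called in none of the 23 alternative analyses described further on (lowest adjusted p = 0.0503). With each library scaled to a common median of the tested genes, HSPA8, HSP90AB1 and DNAJC2 were called higher, beside 2.56% of all genes higher and 0.674% lower. With quantile normalization HSPA8 was, beside 1.74% of all genes higher and 0.744% lower. Leaving out 1 library gave 1 called member without control replicate 3 (DNAJC2), without LPS replicate 1 (DNAJA1) and without PINT shRNA1 replicate 3 (HSPA8).

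The heat-inducible list gave no call with LPS, where 2.76% of all genes were called. Of its 14 genes 13 were tested, 2 were higher and 0 lower at an unadjusted p under 0.05, and the median difference was 0.039, with 9 of 13 above 0. Of all 17214 genes, 1055 were higher and 1841 lower at that p, and 7012 had a difference above 0. HSPH1 stood at 123, 125 and 132 FPKM in control, 137, 134 and 133 with LPS, 141, 139 and 137 in PINT shRNA1 and 145, 135 and 153 in PINT shRNA1 with LPS. HSPD1 stood at 547, 525 and 569 FPKM in control, 556, 558 and 687 with LPS, 562, 597 and 596 in PINT shRNA1 and 594, 580.01 and 690.03 in PINT shRNA1 with LPS, with LPS replicate 3 above the other LPS libraries. DNAJB1, the J protein that partners HSP70 in the heat shock response, was measured at 75.1, 63.1 and 73.4 FPKM in control, 72.3, 64.1 and 76.0 with LPS, 70.5, 63.3 and 67.4 in PINT shRNA1 and 65.1, 69.3 and 69.2 in PINT shRNA1 with LPS, so LPS and control overlapped. DNAJA1 was spread among the LPS libraries, at 115, 115 and 117 FPKM in control, 100.4, 139 and 142 with LPS, 101, 93.1 and 96.3 in PINT shRNA1 and 101, 98.1 and 107 in PINT shRNA1 with LPS. HSPA4L, an HSP110 protein of lower level, stood at 4.54, 4.40 and 4.92 FPKM in control, 4.79, 4.60 and 4.74 with LPS, 4.36, 3.97 and 3.94 in PINT shRNA1 and 5.59, 3.75 and 4.20 in PINT shRNA1 with LPS.

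**Figure D2:**
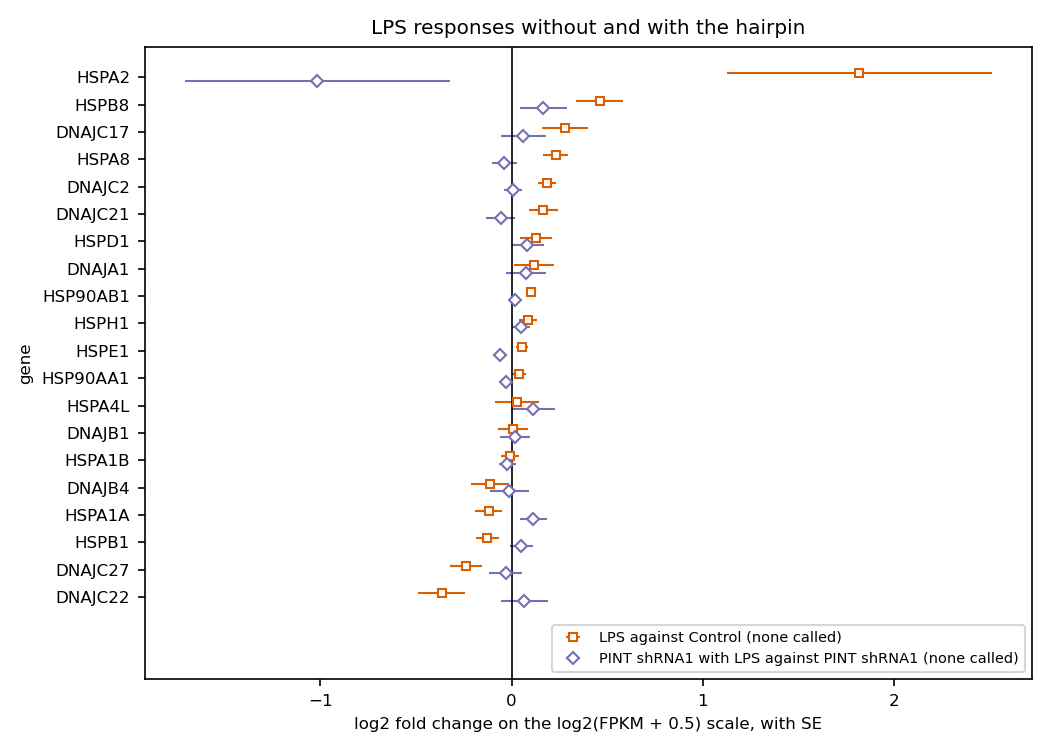
LPS responses of heat-inducible members and of members with the smallest p, as log2 fold changes on the log2(FPKM + 0.5) scale with SE, without the hairpin (squares) and with it (diamonds); no point passed the threshold. HSPA2 lies at 1.82 without the hairpin with a wide SE, and the heat-inducible genes lie between -0.13 and 0.23.

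The inducible HSP70 genes HSPA1A and HSPA1B, near-identical neighbours, need a joint reading. HSPA1A stood at 20.9, 20.5 and 20.5 FPKM in control, 17.7, 20.9 and 18.3 with LPS, 16.4, 15.5 and 18.1 in PINT shRNA1 and 18.3, 17.6 and 18.2 in PINT shRNA1 with LPS, and HSPA1B at 37.7, 37.5 and 37.3 FPKM in control, 36.6, 37.7 and 37.4 with LPS, 36.3, 34.7 and 39.4 in PINT shRNA1 and 36.9, 35.8 and 35.9 in PINT shRNA1 with LPS. Neither differed between LPS and control past the threshold. The log2 differences were -0.12 ± 0.0698 (adjusted p = 0.431) for HSPA1A and -0.0085 ± 0.0457 (adjusted p = 0.947) for HSPA1B. In GENCODE 29, 69.9% of the 100-base windows of the HSPA1A transcript occur unchanged in HSPA1B. HSPA1B also shares 36.5% of its exon bases with AL671762.1, a processed transcript on the same strand, which touches its values and the sum below. How shared reads were divided between the genes is not given in the sources used here. Their sum was 57.8 to 58.5 FPKM in control, 54.4 to 58.7 with LPS, 50.2 to 57.5 with the hairpin alone and 53.4 to 55.2 with both.

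**Figure D3:**
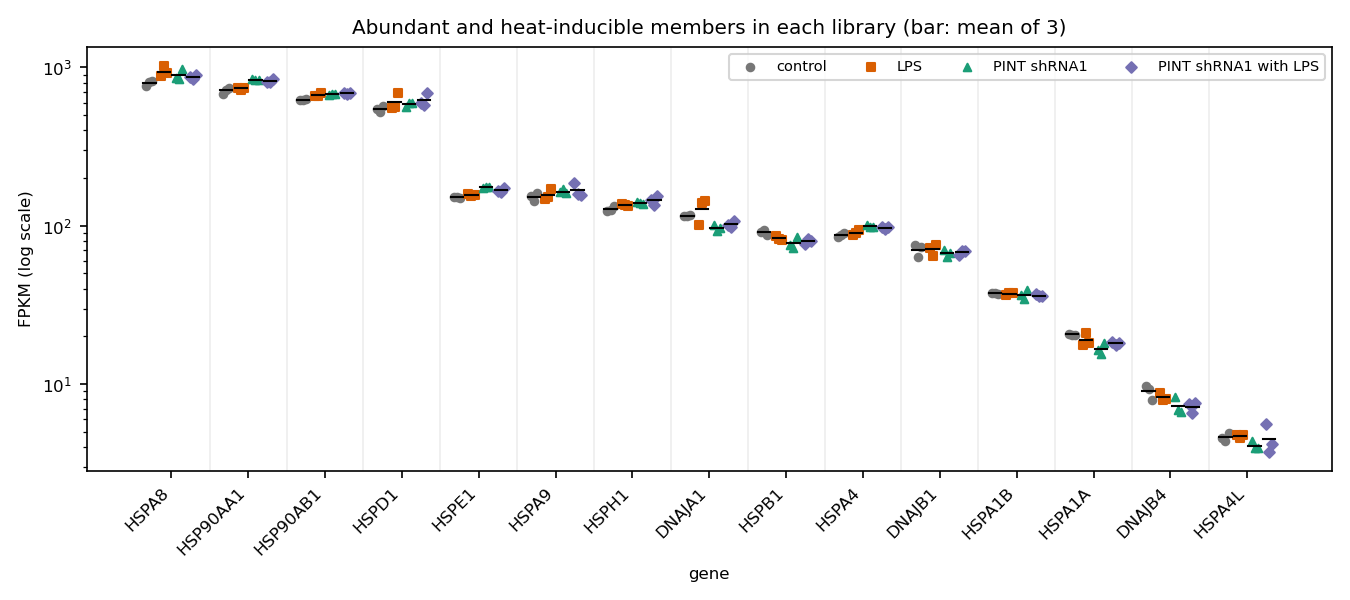
FPKM of abundant and heat-inducible members in each library, by group, on a log scale. Points are libraries and bars group means. The hairpin groups lie above control for HSP90AA1 and HSPE1, and for HSPA8 LPS replicate 2 is the highest library at 1016 FPKM.

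In the libraries labelled PINT shRNA1, 8 members were called higher and 10 lower than in control, 18 of 54, beside 27.3% of all genes (16.9% higher and 10.3% lower). Both cytosolic HSP90 genes, the HSP110 protein HSPA4, the chaperonin subunit HSPE1 and the J proteins DNAJA4, DNAJC2, DNAJC1 and DNAJC21 rose, while HSPB1, HSPA1A, HSPA12A and the J proteins DNAJC13, DNAJC19, DNAJC27, DNAJC15, DNAJC30, DNAJC6 and DNAJB4 fell. The called differences were small, from 0.12 to 0.45 on the log2 scale in either direction. The median over the tested members was -0.015, beside 0.057 over all genes. Library groups did not overlap for 10 members above control (25.6% of all genes) and 13 below (15.8% of all genes). With libraries scaled to a common median, 5 were called higher and 10 lower, beside 12.9% of all genes higher and 12.5% lower, shares that lie closer together than at the main scaling. Calls were also checked under 23 alternative analyses: other scalings, pseudocounts, filters and variance models, a replicate block, only the compared groups in the fit, and each of the 12 libraries left out in turn. The rises of HSPE1, HSP90AA1, DNAJC2, DNAJA4 and HSPA4 and the falls of DNAJC13, DNAJC15, DNAJC19 and HSPA1A held in all 23.

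Among the ATP-driven chaperones, HSP90AA1 stood at 683, 724 and 743 FPKM in control, 742, 720.1 and 745 with LPS, 839.8, 837 and 829 in PINT shRNA1 and 805, 809 and 844 in PINT shRNA1 with LPS. All 6 hairpin libraries exceeded all 6 without it, and the rise against control was 1.17-fold (log2 0.22 ± 0.0348, adjusted p = 0.000962). HSP90AB1, with the values given above, rose by 0.12 ± 0.0256 (adjusted p = 0.00531) on the log2 scale, and its call ended in 2 of the 23 alternatives: under median scaling and with no intensity trend (adjusted p from 0.0648 to 0.0754). HSPA4 was measured at 85.5, 87.9 and 89.5 FPKM in control, 88.0, 89.6 and 94.2 with LPS, 101, 98.0 and 98.1 in PINT shRNA1 and 97.7, 95.9 and 98.7 in PINT shRNA1 with LPS, a log2 rise of 0.18 ± 0.0354 (adjusted p = 0.00427). HSPA8 did not pass, at 0.16 ± 0.0643 (adjusted p = 0.0952), though all 3 PINT shRNA1 libraries lay above control, and was called higher in 2 of the 23 alternatives, under quantile normalization and with libraries rescaled to a common total (adjusted p from 0.00874 to 0.0438). HSPH1 likewise lay above control in all 3 libraries without passing (0.13 ± 0.0463, adjusted p = 0.0542), and was called higher in 5 of the 23 alternatives, with libraries rescaled to a common total, with a filter of 1 FPKM, without control replicate 3 and without PINT shRNA1 with LPS replicate 2 or 3 (adjusted p from 0.0202 to 0.0492). HSPA9, the mitochondrial HSP70, stood at 154, 143 and 162 FPKM in control, 148, 151 and 171 with LPS, 163, 169 and 160.1 in PINT shRNA1 and 185, 159 and 157 in PINT shRNA1 with LPS, with overlapping groups.

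The subunits of the mitochondrial chaperonin did not give the same call. HSPE1 stood at 152, 152 and 149 FPKM in control, 159, 155 and 157 with LPS, 174, 176 and 174 in PINT shRNA1 and 166, 163 and 174 in PINT shRNA1 with LPS, so every hairpin library was above every library without it. The rise against control was 0.21 ± 0.0305 (adjusted p = 0.000596) on the log2 scale, the smallest adjusted p of the members. HSPD1, the large subunit, was at 0.10 ± 0.0852 (adjusted p = 0.441) with overlapping groups, and the difference between the subunits was not tested. The HSPD1 to HSPE1 ratio of FPKM was 3.45 to 3.81 in control, 3.50 to 4.38 with LPS, 3.23 to 3.42 with the hairpin alone and 3.56 to 3.98 with both.

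Of the inducible HSP70 genes, HSPA1A fell by 0.30 on the log2 scale (SE 0.0698, adjusted p = 0.00886) and HSPA1B, its near copy, was at -0.028 ± 0.0457 (adjusted p = 0.692). HSPA1A plus HSPA1B, added before the log, gave -0.12 ± 0.0496 (adjusted p = 0.0959), which did not pass. The call of HSPA1A was thus not seen in the sum of both copies. HSPA12A, a distant relative whose ATPase domain is atypical, fell: it stood at 25.1, 23.9 and 25.3 FPKM in control, 22.5, 24.4 and 24.2 with LPS, 22.4, 22.6 and 20.7 in PINT shRNA1 and 21.4, 20.6 and 19.6 in PINT shRNA1 with LPS and differed from control by -0.17 ± 0.0544 (adjusted p = 0.0378). The call for HSPA12A ended in 10 of the 23 alternatives: without control replicate 1 or 3, PINT shRNA1 replicate 1 or 3 or PINT shRNA1 with LPS replicate 2 (adjusted p from 0.0534 to 0.128), and with libraries rescaled to a common total, with no filter on low values, with no intensity trend, with a replicate block and with only the compared groups in the fit (adjusted p from 0.0604 to 0.0792).

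HSPB1, the small heat shock protein also called HSP27, had the highest control level of the members called lower. It stood at 91.5, 93.4 and 87.6 FPKM in control, 85.8, 82.6 and 81.0 with LPS, 75.3, 71.8 and 85.2 in PINT shRNA1 and 77.1, 82.8 and 80.3 in PINT shRNA1 with LPS. The PINT shRNA1 libraries lay below control, with a log2 difference of -0.23 ± 0.0592 (adjusted p = 0.0147). The LPS libraries without the hairpin also lay below control, at -0.13 ± 0.0592 (adjusted p = 0.312), which did not pass. The HSPB1 call ended in 3 of the 23 alternatives: without PINT shRNA1 replicate 1 or 2 (adjusted p from 0.0517 to 0.0534), and with only the compared groups in the fit (adjusted p = 0.0570). DNAJA1, more abundant than HSPB1 and with the values given above, also lay below control in all 3 PINT shRNA1 libraries and did not pass, at -0.26 ± 0.106 (adjusted p = 0.0937). It was called lower in 2 of the 23 alternatives, with only the compared groups in the fit and without LPS replicate 1 (adjusted p from 0.00147 to 0.00800). HSPB11, which belongs to the intraflagellar transport machinery, was at -0.085 ± 0.0521 (adjusted p = 0.261) and HSPB8 at 0.083 ± 0.123 (adjusted p = 0.666).

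Of the J proteins that rose, DNAJA4 had the largest change. It stood at 16.9, 13.2 and 16.4 FPKM in control, 17.3, 16.5 and 16.4 with LPS, 22.3, 19.2 and 22.2 in PINT shRNA1 and 19.5, 19.2 and 20.2 in PINT shRNA1 with LPS. All PINT shRNA1 libraries were above control, a 1.36-fold rise (log2 0.45 ± 0.0883, adjusted p = 0.00387). DNAJC2 stood at 49.1, 51.7 and 55.6 FPKM in control, 60.7, 58.3 and 58.7 with LPS, 66.1, 64.8 and 61.9 in PINT shRNA1 and 65.8, 62.9 and 65.1 in PINT shRNA1 with LPS, with every group apart from control, and rose by 0.30 ± 0.0481 (adjusted p = 0.00109). DNAJC21, a factor of late ribosome assembly, stood at 14.1, 14.7 and 14.3 FPKM in control, 14.6, 16.8 and 17.2 with LPS, 16.2, 18.004 and 16.7 in PINT shRNA1 and 15.0, 16.4 and 17.5 in PINT shRNA1 with LPS. DNAJC21 rose by 0.23 ± 0.0744 (adjusted p = 0.0390). That call ended in 11 of the 23 alternatives: without control replicate 1, 2 or 3, PINT shRNA1 replicate 1, 2 or 3 or PINT shRNA1 with LPS replicate 2 (adjusted p from 0.0523 to 0.127), and under median scaling, under quantile normalization, with no filter on low values and with no intensity trend (adjusted p from 0.0526 to 0.0970). DNAJC1, a J protein of the endoplasmic reticulum membrane, stood at 12.7, 14.3 and 12.9 FPKM in control, 13.4, 12.9 and 14.6 with LPS, 15.6, 14.8 and 15.5 in PINT shRNA1 and 14.8, 15.4 and 15.8 in PINT shRNA1 with LPS. DNAJC1 rose by 0.20 ± 0.0613 (adjusted p = 0.0339). The DNAJC1 call ended in 9 of the 23 alternatives: without control replicate 1 or 3 or PINT shRNA1 replicate 1 or 3 (adjusted p from 0.0884 to 0.102), and under median scaling, under quantile normalization, with no filter on low values, with a replicate block and with only the compared groups in the fit (adjusted p from 0.0541 to 0.0808).

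Of the 7 J proteins called lower 6 were of class C, which holds 24 of the 35 J proteins tested. Within class C 25.0% were called lower and 12.5% higher, beside 10.3% and 16.9% of all genes. In PINT shRNA1 with LPS against LPS, 3 of the 24 were called lower and 1 higher. There 11.6% of all genes were lower and 17.7% higher. The median log2 difference of class C was -0.061 under LPS and -0.025 without it, beside 0.053 and 0.057 over all genes. The interaction called 0 of the class, so its changes are not shown to differ between LPS and unstimulated cells. DNAJC13, which acts on endosomes, stood at 19.99, 21.7 and 21.7 FPKM in control, 18.2, 20.2 and 20.5 with LPS, 15.8, 16.4 and 15.1 in PINT shRNA1 and 14.4, 16.0 and 14.7 in PINT shRNA1 with LPS. Every hairpin library was below every library without it, and the fall against control was to 0.753 of its level (log2 -0.41 ± 0.0634, adjusted p = 0.000892). DNAJC19 and DNAJC15, the J proteins of the import motor at the mitochondrial inner membrane, both fell. DNAJC19 stood at 19.95, 21.2 and 22.8 FPKM in control, 18.5, 19.0 and 20.9 with LPS, 16.9, 15.4 and 17.0 in PINT shRNA1 and 15.0, 15.2 and 16.1 in PINT shRNA1 with LPS. DNAJC19 differed by -0.37 ± 0.0666 (adjusted p = 0.00235). DNAJC15 stood at 31.9, 31.1 and 32.2 FPKM in control, 31.0, 28.8 and 29.6 with LPS, 27.6, 28.3 and 24.9 in PINT shRNA1 and 24.5, 24.4 and 27.0 in PINT shRNA1 with LPS. DNAJC15 differed by -0.23 ± 0.0589 (adjusted p = 0.0138). DNAJC30, another mitochondrial J protein, stood at 6.10, 5.99 and 5.59 FPKM in control, 5.45, 4.80 and 6.26 with LPS, 4.41, 4.49 and 5.08 in PINT shRNA1 and 4.63, 4.39 and 4.61 in PINT shRNA1 with LPS. DNAJC30 differed by -0.31 ± 0.0908 (adjusted p = 0.0271). Of the 9 mitochondrial members 3 thus fell and 1, HSPE1, rose. The DNAJC30 call ended in 5 of the 23 alternatives: without control replicate 1 or 2 or PINT shRNA1 replicate 1 or 2 (adjusted p from 0.0678 to 0.0877), and with no filter on low values (adjusted p = 0.0513).

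The other called falls were in less abundant genes. DNAJC27, which joins a small GTPase domain to a J domain, stood at 3.56, 3.81 and 3.36 FPKM in control, 2.85, 3.01 and 3.01 with LPS, 3.04, 2.61 and 2.48 in PINT shRNA1 and 2.46, 2.71 and 2.73 in PINT shRNA1 with LPS. DNAJC27 differed by -0.35 ± 0.0844 (adjusted p = 0.0113). Its call ended in 1 of the 23 alternatives, with only the compared groups in the fit (adjusted p = 0.0521). DNAJC6, the auxilin that helps HSP70 strip clathrin from vesicles, stood at 4.90, 6.67 and 6.59 FPKM in control, 5.41, 4.66 and 5.03 with LPS, 4.73, 4.72 and 3.61 in PINT shRNA1 and 4.47, 3.79 and 3.94 in PINT shRNA1 with LPS. DNAJC6 differed by -0.43 ± 0.130 (adjusted p = 0.0318). The DNAJC6 call ended in 6 of the 23 alternatives: without control replicate 2 or 3 or PINT shRNA1 replicate 3 (adjusted p from 0.1004 to 0.112), and with no filter on low values, with a replicate block and with only the compared groups in the fit (adjusted p from 0.0567 to 0.0899). DNAJB4, an inducible partner of HSP70, stood at 9.79, 9.34 and 7.97 FPKM in control, 8.84, 7.99 and 8.08 with LPS, 8.26, 6.88 and 6.71 in PINT shRNA1 and 7.46, 6.53 and 7.65 in PINT shRNA1 with LPS. DNAJB4 differed by -0.29 ± 0.0996 (adjusted p = 0.0499), with overlapping groups. The DNAJB4 call ended in 14 of the 23 alternatives: without control replicate 1 or 2, LPS replicate 1, 2 or 3, PINT shRNA1 replicate 2 or 3 or PINT shRNA1 with LPS replicate 1 or 3 (adjusted p from 0.0546 to 0.152), and with libraries rescaled to a common total, with a pseudocount of 0.1, with no filter on low values, with no intensity trend and with only the compared groups in the fit (adjusted p from 0.0506 to 0.108).

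The heat-inducible list split in this comparison, with 3 of 13 tested genes called higher (HSP90AA1, HSP90AB1, HSPE1), 3 lower (HSPA1A, HSPB1, DNAJB4), beside 16.9% and 10.3% of all genes, and a median difference of -0.028. Of 16 tested members with a 2-unit element 3 rose and 4 fell, and of 33 without it 4 rose and 6 fell, with medians of -0.053 and 0.0085. The 4 members of the list with a 3-unit element that were tested, HSPA8, HSP90AA1, HSP90AB1 and HSPD1, include both HSP90 genes that rose and HSPA8 and HSPD1, which did not pass.

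**Figure D4:**
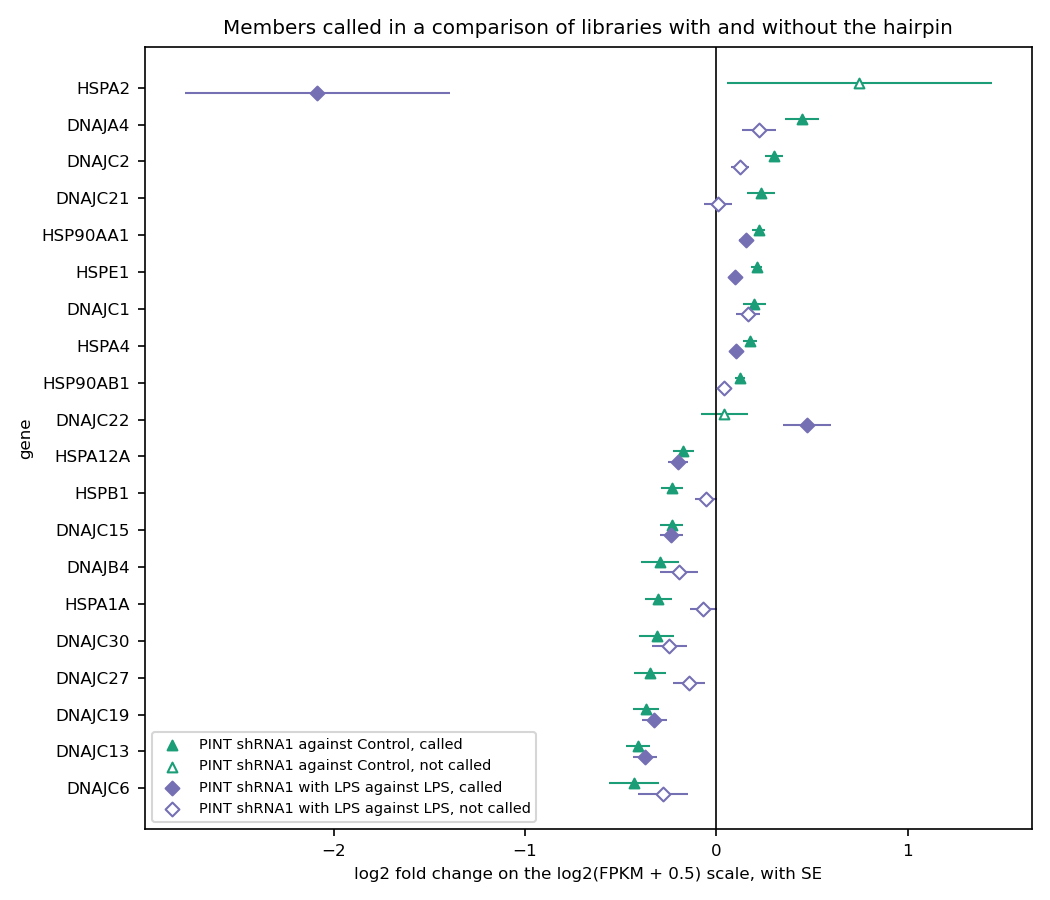
Members called in a comparison of libraries with and without the hairpin, as log2 fold changes on the log2(FPKM + 0.5) scale with SE; triangles are unstimulated and diamonds LPS-treated pairs of groups, filled where called. Apart from HSPA2 at -2.08 the called differences lie between -0.43 and 0.47, and HSPA2 has a wide SE.

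Under LPS the comparison used other libraries, PINT shRNA1 with LPS against LPS, and called 4 members higher and 5 lower, 9 of 54. Of all genes 29.2% were called (17.7% higher, 11.6% lower). HSP90AA1, HSPE1, HSPA4 and DNAJC22 rose, and DNAJC13, DNAJC19, DNAJC15, HSPA12A and HSPA2 fell. The median member difference was -0.058, beside 0.053 over all genes. Groups did not overlap for 8 members above LPS (27.7% of all genes) and 12 below (18.1% of all genes). With libraries scaled to a common median 1 member was called higher and 9 were lower, beside 13.6% of all genes higher and 14.7% lower. Quantile normalization gave 5 and 8, beside 14.9% of all genes higher and 13.7% lower. Among single libraries left out, the higher count was 1 without LPS replicate 1 and 2 without LPS replicate 2 or PINT shRNA1 with LPS replicate 1 or 3. The lower count was 8 without LPS replicate 1, and 3 without LPS replicate 3 or PINT shRNA1 with LPS replicate 2 or 3.

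Called in the same direction with and without LPS were 7 members, which is 38.9% of the 18 called without LPS and 77.8% of the 9 called with it. Over all genes the shares were 70.9% and 66.1%. These 7 were HSP90AA1, HSPE1 and HSPA4, which rose, and DNAJC13, DNAJC19, DNAJC15 and HSPA12A, which fell. Under LPS DNAJC13 differed by -0.37 ± 0.0634 (adjusted p = 0.00138) and DNAJC19 by -0.32 ± 0.0666 (adjusted p = 0.00430), and both calls held in all 23 alternatives in each comparison. DNAJC15 differed by -0.23 ± 0.0589 (adjusted p = 0.0126), a call that ended in 2 of the 23 alternatives: without PINT shRNA1 with LPS replicate 1 or 2 (adjusted p from 0.0507 to 0.0509). HSPA12A differed by -0.20 ± 0.0544 (adjusted p = 0.0183), and its call ended in 3 of the 23 alternatives: without LPS replicate 2 or 3 or PINT shRNA1 with LPS replicate 3 (adjusted p from 0.0552 to 0.0732). HSP90AA1 rose by 0.16 ± 0.0348 (adjusted p = 0.00686), and its call ended in 1 of the 23 alternatives, under median scaling (adjusted p = 0.0796).

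Another 11 members that did not pass under LPS were called there in up to 3 of the 23 alternatives. DNAJA4, at 0.22 ± 0.0883 (adjusted p = 0.0815), was called higher in 3 of the 23 alternatives, with a replicate block, with only the compared groups in the fit and without control replicate 2 (adjusted p from 0.0159 to 0.0438). DNAJC1, at 0.17 ± 0.0613 (adjusted p = 0.0653), was called higher in 3 of the 23 alternatives, with libraries rescaled to a common total, without control replicate 2 and without LPS replicate 3 (adjusted p from 0.0332 to 0.0476). DNAJC2, at 0.12 ± 0.0481 (adjusted p = 0.0776), was called higher in 2 of the 23 alternatives, with libraries rescaled to a common total and without control replicate 3 (adjusted p from 0.0425 to 0.0480). Of those below LPS, DNAJA1, at -0.30 ± 0.106 (adjusted p = 0.0543), was called lower in 2 of the 23 alternatives, under median scaling and without LPS replicate 1 (adjusted p from 0.000126 to 0.0288). DNAJC30, at -0.24 ± 0.0908 (adjusted p = 0.0657), was called lower in 3 of the 23 alternatives, under median scaling, under quantile normalization and without LPS replicate 2 (adjusted p from 0.0198 to 0.0294). DNAJC17, a J protein with an RNA-binding domain, was at -0.32 ± 0.118 (adjusted p = 0.0631) and was called lower in 3 of the 23 alternatives, under median scaling, under quantile normalization and without PINT shRNA1 with LPS replicate 1 (adjusted p from 0.0291 to 0.0343). HSPA13, an HSP70 of microsomes, was at -0.12 ± 0.0520 (adjusted p = 0.102) and was called lower in 2 of the 23 alternatives, under median scaling and under quantile normalization (adjusted p from 0.0271 to 0.0449), and without LPS it was called lower in 1 of the 23 alternatives, under quantile normalization (adjusted p = 0.0434). DNAJC8 and DNAJC11 were called lower in 1 alternative each, without LPS replicate 1, HSPH1 higher in 1, without PINT shRNA1 with LPS replicate 2, and HSP90AB1 higher in 1, under quantile normalization.

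HSPE1 and HSPA4 passed narrowly under LPS. HSPE1 rose by 0.10 ± 0.0305 (adjusted p = 0.0359), and its call ended in 10 of the 23 alternatives: without LPS replicate 1, 2 or 3 or PINT shRNA1 with LPS replicate 1 or 3 (adjusted p from 0.0510 to 0.134), and under median scaling, with no filter on low values, with no intensity trend, with a replicate block and with only the compared groups in the fit (adjusted p from 0.0574 to 0.367). HSPA4 rose by 0.10 ± 0.0354 (adjusted p = 0.0466), and its call ended in 14 of the 23 alternatives: without control replicate 2, LPS replicate 1 or 2, PINT shRNA1 replicate 1, 2 or 3 or PINT shRNA1 with LPS replicate 1, 2 or 3 (adjusted p from 0.0535 to 0.138), and under median scaling, with no filter on low values, with no intensity trend, with a replicate block and with only the compared groups in the fit (adjusted p from 0.0635 to 0.358). HSPA1A (-0.068 ± 0.0698, adjusted p = 0.508), HSPB1 (-0.054 ± 0.0592, adjusted p = 0.540) and HSP90AB1 (0.039 ± 0.0256, adjusted p = 0.288) did not pass under LPS. The remaining called genes were DNAJC22 and HSPA2. DNAJC22, a membrane J protein tied to clathrin uptake, stood at 6.83, 8.11 and 5.70 FPKM in control, 4.68, 5.07 and 5.84 with LPS, 7.97, 6.24 and 6.99 in PINT shRNA1 and 7.48, 7.28 and 7.40 in PINT shRNA1 with LPS. DNAJC22 rose by 0.47 ± 0.124 (adjusted p = 0.0149). Its LPS libraries were the low ones, and its call ended in 1 of the 23 alternatives, without LPS replicate 1 (adjusted p = 0.0535).

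No member was called for LPS in the hairpin libraries. In PINT shRNA1 with LPS against PINT shRNA1, 0 of 54 were called beside 0.186% of all genes. At an unadjusted p under 0.05 only DNAJC9, a J protein that also carries histones, was higher (0.26 ± 0.0921, adjusted p = 0.455). Of all 17214 genes, 512 were higher and 996 lower at that unadjusted p. DNAJC9 stood at 19.1, 18.7 and 19.4 FPKM in control, 19.0, 22.1 and 20.4 with LPS, 20.2, 18.5 and 17.2 in PINT shRNA1 and 24.1, 23.9 and 19.2 in PINT shRNA1 with LPS, with PINT shRNA1 with LPS replicate 3 inside the range of the other group. The interaction, the LPS response with the hairpin minus that without it, also called 0 members beside 0.128% of all genes. At an unadjusted p under 0.05, 2 members were higher and 5 lower, beside 614 and 719 of all 17214 genes. HSPA8 had the smallest p: its LPS response was 0.23 ± 0.0643 without the hairpin and -0.038 ± 0.0643 with it, a difference of -0.27 ± 0.0910 (adjusted p = 0.495). Next were HSPA2 (-2.83 ± 0.979, adjusted p = 0.516), HSPE1 (-0.11 ± 0.0432, adjusted p = 0.566) and DNAJC2 (-0.18 ± 0.0680, adjusted p = 0.582). The falls and rises described above are thus not shown to differ between LPS and unstimulated cells.

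The other 34 tested members were called in no comparison, apart from the alternatives given above. Among them are the constitutive or organelle chaperones HSPA8, HSPA9, HSPA13 and HSPD1, the exchange factor HSPH1, the ribosome-linked HSPA14, HSPB8 and HSPB11, 3 of 4 class A J proteins (DNAJA1, DNAJA2, DNAJA3), 6 of 7 tested class B J proteins and 14 of 24 tested class C J proteins. Their log2 differences ran from -0.31 to 0.28 in PINT shRNA1 against control and from -0.50 to 0.21 under LPS. DNAJC7, the most abundant class C member, stood at 57.5, 64.7 and 58.1 FPKM in control, 56.8, 60.2 and 59.2 with LPS, 59.4, 59.7 and 59.4 in PINT shRNA1 and 59.1, 59.7 and 62.4 in PINT shRNA1 with LPS, within a narrow band in every group but for control replicate 2.

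A few members varied widely inside a group. HSPA2, an HSP70 best known from testis, stood at 1.00, 0.854 and 0.759 FPKM in control, 1.15, 7.96 and 7.53 with LPS, 0.617, 6.45 and 1.06 in PINT shRNA1 and 0.528, 0.815 and 0.587 in PINT shRNA1 with LPS. Only LPS replicates 2 and 3 and PINT shRNA1 replicate 2 exceeded 1.15 FPKM, and the other 9 libraries lay at or under that level. Its fall under LPS, -2.08 ± 0.693 (adjusted p = 0.0438) on the log2 scale, rests on those LPS libraries, and the call ended in 11 of the 23 alternatives: without control replicate 1, 2 or 3, LPS replicate 2 or 3, PINT shRNA1 replicate 3 or PINT shRNA1 with LPS replicate 1, 2 or 3 (adjusted p from 0.0513 to 0.138), and with no filter on low values and with no intensity trend (adjusted p from 0.0539 to 0.114). DNAJC8, a J protein of the splicing machinery, had a like pattern at a higher level, 60.3, 35.1 and 35.4 FPKM in control, 36.4, 60.6 and 71.5 with LPS, 37.5, 36.8 and 36.1 in PINT shRNA1 and 37.0, 38.4 and 38.6 in PINT shRNA1 with LPS. Control replicate 1 and LPS replicates 2 and 3 were high, and the other 9 libraries lay between 35.1 and 38.6 FPKM.

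DNAJB6, which suppresses aggregation of polyglutamine proteins, stood at 68.4, 73.7 and 70.9 FPKM in control, 69.0, 53.0 and 76.3 with LPS, 64.1, 45.7 and 63.7 in PINT shRNA1 and 42.9, 64.0 and 65.4 in PINT shRNA1 with LPS, with 1 low library in each group but control. DNAJC10, a disulfide reductase of the endoplasmic reticulum with a J domain, stood at 12.1, 11.1 and 10.9 FPKM in control, 11.9, 18.02 and 11.04 with LPS, 11.4, 15.0 and 10.7 in PINT shRNA1 and 10.3, 13.97 and 11.2 in PINT shRNA1 with LPS, with replicate 2 the highest in every group but control. DNAJB5 stood at 1.09, 1.21 and 1.57 FPKM in control, 1.22, 1.37 and 1.37 with LPS, 2.01, 0.864 and 2.46 in PINT shRNA1 and 2.17, 0.804 and 1.77 in PINT shRNA1 with LPS, with replicate 2 low in both hairpin groups. Within some group 10 of the 54 tested members had a highest library at least 1.5 times the lowest, and 2 at least 2 times. These are 18.5% and 3.70% of the members, beside 40.8% and 22.2% of all tested genes. HSPA2, DNAJC8 and DNAJB6 share no exon bases with another gene in GENCODE 29, whereas 27 of the 54 tested members do, 13 of them on the same strand. Others with a ratio of at least 1.5 do share exon bases. On the same strand DNAJC10 shares 1.55% of its bases with the pseudogene RPL31P15, and DNAJC4 10.6% with NUDT22. On the opposite strand DNAJC11 shares 27.9% with THAP3. A part of shared reads in the spread was not tested. Whether the authors' counting used strand is not given in the sources used here.

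**Figure D5:**
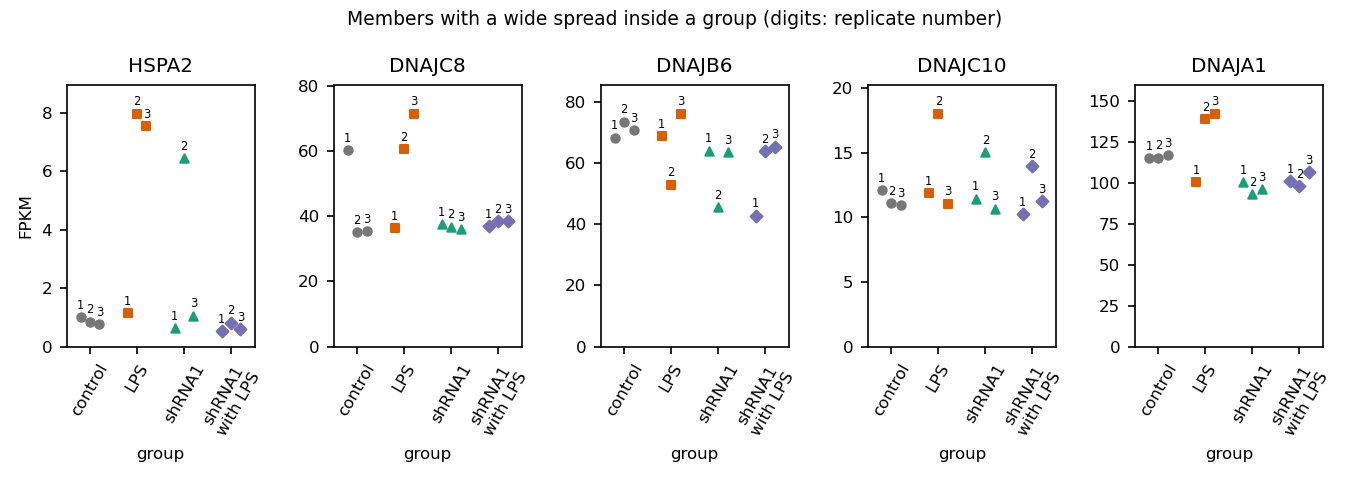
FPKM in each library of members with a wide spread inside a group, by group. HSPA2 is high in LPS replicates 2 and 3 and PINT shRNA1 replicate 2, and DNAJC8 in control replicate 1 and LPS replicates 2 and 3.

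Around the members, other listed genes of the folding pathway gave 0 calls with LPS, where only 2.76% of all genes were called. The lists were heat shock factors, other HSF1 targets, HSP70 and HSP90 co-chaperones, TRiC, prefoldin, mitochondrial chaperones and endoplasmic reticulum chaperones. At an unadjusted p under 0.05 the HSP90 co-chaperones had 4 of 16 higher, each other list had at most 1 higher, and 0 were lower. Of all 17214 genes, 1055 were higher and 1841 lower at that p. Against control, the libraries labelled PINT shRNA1 gave calls in both directions, to be read beside the 16.9% of all genes called higher and 10.3% lower. Of 4 tested genes of the heat shock factor list 2 were higher and 0 lower. HSF4, a heat shock factor best known from the lens, stood at 0.976, 0.861 and 1.14 FPKM in control, 0.962, 0.566 and 0.959 with LPS, 2.67, 3.39 and 2.89 in PINT shRNA1 and 2.70, 2.17 and 2.71 in PINT shRNA1 with LPS. Each hairpin library was above each library without it, and the rise was 1.22 ± 0.146 (adjusted p = 0.000181) on the log2 scale. HSBP1, which binds heat shock factors, rose by 0.16 ± 0.0327 (adjusted p = 0.00452), and HSF2 was at 0.082 ± 0.0801 (adjusted p = 0.494). Of 10 tested HSF1 targets outside the families, 1 was higher (STIP1, 0.12 ± 0.0328, adjusted p = 0.0197) and 2 were lower, FKBP4 (-0.34 ± 0.0407, adjusted p = 0.000170) and CACYBP (-0.28 ± 0.0540, adjusted p = 0.00312).

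Of 16 HSP90 co-chaperones 3 were higher and 1 lower. TOMM34, which links cytosolic chaperones to mitochondrial import, stood at 60.5, 66.1 and 61.4 FPKM in control, 65.4, 66.6 and 67.9 with LPS, 111, 108 and 115 in PINT shRNA1 and 117, 117 and 116 in PINT shRNA1 with LPS, with hairpin libraries apart from the rest, and rose by 0.83 ± 0.0398 (adjusted p = 2.24e-07). CDC37, which brings kinases to HSP90, rose by 0.64 ± 0.0925 (adjusted p = 0.000579), STIP1 being another, and FKBP4 was the one that fell. Of 10 HSP70 co-chaperones 0 were higher and 2 lower, ST13 (-0.21 ± 0.0333, adjusted p = 0.000927) and BAG4 (-0.18 ± 0.0524, adjusted p = 0.0293). TRiC, the cytosolic chaperonin, had 1 of 8 subunits called, CCT6A higher by 0.21 ± 0.0583 (adjusted p = 0.0221). Prefoldin had 1 of 6, PFDN2, higher by 0.49 ± 0.155 (adjusted p = 0.0364). Mitochondrial chaperones and proteases gave 2 of 10 higher, GRPEL1 (0.36 ± 0.0784, adjusted p = 0.00628) and AFG3L2 (0.12 ± 0.0390, adjusted p = 0.0481). Of 6 endoplasmic reticulum chaperones, the 4 that the rule leaves out with HSP90B1 and HYOU1, 3 were higher and 1 lower. DNAJB9 rose by 0.30 ± 0.0511 (adjusted p = 0.00147) and DNAJC3 by 0.29 ± 0.0528 (adjusted p = 0.00253), and so did HYOU1, named after its values were seen, by 0.40 ± 0.0995 (adjusted p = 0.0122), while HSPA5 differed by -0.17 ± 0.0298 (adjusted p = 0.00188). Under LPS the hairpin comparison again called HSF4 (1.20 ± 0.146, adjusted p = 0.000177) and TOMM34 (0.80 ± 0.0398, adjusted p = 2.99e-07) higher and FKBP4 (-0.38 ± 0.0407, adjusted p = 7.46e-05) and ST13 (-0.25 ± 0.0333, adjusted p = 0.000353) lower, and BAG3 was called higher there (0.28 ± 0.0641, adjusted p = 0.00717).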

How the data were processed

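The deposited values are FPKM per Ensembl gene and library. Per the submitters' processing notes, fastp, HISAT2 2.1.0, StringTie 1.3.4d and GRCh37/hg19 were used; their roles, and how shared or antisense reads were counted, are not given in the sources used here. The labels list 15 samples for 12 columns, because each PINT shRNA1 column matches 2 of 6 samples; the column counted as 1 library. Another 6 columns were not used here.

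Genes reaching 0.5 FPKM in 3 or more of the 12 libraries were analysed as log2(FPKM + 0.5), so fold changes of low genes are understated. A single group-means fit in limma 3.58.1 (R 4.3.3) with an intensity trend gave two-sided contrasts, with Benjamini-Hochberg adjustment over 17214 genes; errors of log2 differences are its SE. The fit was tested on simulated data. Depth is unknown, so no counting error is given. Members and lists were chosen with earlier results of these data known. Values per library are given for the 10 most abundant members, the heat-inducible list, the called members with the 6 highest and 6 lowest log2 changes per comparison (at least 1 FPKM), the 4 members of smallest interaction p, and members of wide spread, which were chosen after their values were seen; up to 3 genes of smallest p are named for each other list. The 23 alternatives were scaling, rescaling, pseudocount, filter, trend, moderation, replicate block, groups in the fit and each library left out. HSPA1A plus HSPA1B was added after seeing the data. GENCODE 29 and the RefSeq promoters are of GRCh38, another build, and served for exon overlap and sequence only. The 50 bases after each start in the promoter windows were not searched. Where a gene has several starts, bases before a downstream start can be transcribed from an upstream one.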

Additional observations from a re-analysis of the deposited data

How the results depend on the processing

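The 5 comparisons were recomputed under 23 alternatives and with a minimum absolute log2 change of 1, and no called value changed its sign. For LPS against control 1.57% of all genes were called higher and 1.19% lower, and 2.56% and 0.674% with each library scaled to a common median of tested genes. The share in all was 2.76%, but 1.73% without control replicate 2 and 1.68% without LPS replicate 3. It was 1.81% with a replicate block, 0.917% with no filter on low values and 0.738% with only the compared groups. With no filter it was 10.1% in place of 27.3% for PINT shRNA1 against control and 10.8% in place of 29.2% under LPS. For LPS in hairpin libraries it ran from 0.0988% to 0.343% around 0.186%, with 0.111% to 0.123% without PINT shRNA1 replicate 1 or 2 or PINT shRNA1 with LPS replicate 1 or 2, and for the interaction it was 0.0813% with a replicate block and 0.0542% with no filter, in place of 0.128%. With each library scaled to a common median of tested genes, LPS against control called 3 members higher in place of 0, PINT shRNA1 against control 5 in place of 8, and PINT shRNA1 with LPS against LPS 1 in place of 4 higher and 9 in place of 5 lower. Quantile normalization gave 1 higher for LPS against control and 8 lower for PINT shRNA1 with LPS against LPS. Calls lower in PINT shRNA1 fell from 10 to 6 with no filter on low values, where more genes were tested, and to 6 with only the compared groups in the fit, which uses fewer libraries; with no intensity trend the higher calls of PINT shRNA1 with LPS against LPS fell from 4 to 2. The cause of the scaling, normalization and trend differences was not tested. A minimum log2 change of 1 left 0 higher and 0 lower in PINT shRNA1 against control, and 0 higher and 1 lower, HSPA2, under LPS. Leaving out 1 library at a time gave 0 to 1 higher for LPS against control, while with the hairpin under LPS it gave 1 to 5 higher and 3 to 8 lower. The other counts stayed within 1.5 times the main ones.

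With a replicate block, PINT shRNA1 against control called 7 members higher and 8 lower, and PINT shRNA1 with LPS against LPS 3 higher and 5 lower. Same-numbered libraries did not deviate together: 18 correlations of their deviations ran from -0.048 to 0.057, none above 0.1, and 5 of 12 libraries correlated best with their own number. Depth is unknown, which limits what can be said of genes near the filter of 0.5 FPKM.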
